A study of Homo sapiens with 8 samples.

Results

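This comparison set RNA of H820 spheres against RNA of H1975 spheres. Both are established human lung adenocarcinoma lines, and their libraries were 4 of the 8 in the series. Each line gave 1 untreated library and 1 library from spheres that had received PD-L1s for 15 min. PD-L1s is a synthetic version of PD-L1, the ligand of the immune checkpoint receptor PD-1, made soluble and given here at 25 µg/ml. All spheres had grown free of serum in ultra-low attachment flasks, in DMEM-F12 with FGF, EGF and B-27. The other 4 libraries came from H23, an adenocarcinoma line, and EBC1, a squamous line. These were in the fit too, where they share the estimate of spread and the treatment term and bear on which genes are tested. A line counted here as the mean of its 2 libraries after a common treatment effect was taken out. Nothing in the labels says that the libraries came from separate cultures, so p-values measure the spread between these libraries, and a cell line stands for a single tumour.

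Lung adenocarcinoma arises from cells of the distal airway and alveoli, and NKX2-1, FOXA1 and FOXA2 are transcription factors that keep that lineage. Adenocarcinomas can lose parts of this programme and take up genes of gut and liver, whose regulators include HNF4 and CDX2 and which derive from the same embryonic endoderm. The epidermal growth factor receptor EGFR and the hepatocyte growth factor receptor MET feed the MAP kinase and PI3K pathways. Both lines are known to carry an activating EGFR mutation together with a mutation that gives resistance to early EGFR inhibitors, and H820 is also known for amplification of MET. Mutations and gene copies were not measured here.

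Total counts were 5559870 and 23783679 in untreated and PD-L1s H820, and 23751862 and 22241208 in H1975. Levels below are in CPM, counts brought to a common library total, with TMM scaling, which assumes that most genes do not differ between libraries. That assumption is uncertain here, since 54.4% of the genes tested differed between the lines. Levels are always given in the order untreated, then PD-L1s, and are compared between lines and not between genes, since CPM ignores gene length. The H1975 libraries lay closer together than the H820 libraries. Of the genes tested, 0.209% were over 2-fold apart between the H1975 libraries and 5.96% between the H820 libraries. Mitochondrial RNA took 4.07% of the counts of the shallow untreated H820 library and 2.34% to 2.56% of the other 3. Across genes, Pearson's r of log levels was 0.982 within H820, 0.996 within H1975 and 0.863 to 0.876 between the lines.

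Of 23419 genes tested outside chromosomes X and Y, 12742 (54.4%) differed at an adjusted p under 0.05 (edgeR quasi-likelihood test, Benjamini-Hochberg). There were 6332 (27.0%) higher in H820 and 6410 (27.4%) higher in H1975. The scaling centres the differences near 0, so this balance follows in part from it. Over 4-fold differences were held by 2396 and 2063 of them. Without the untreated H820 library the counts were 6420 and 6337, and without the PD-L1s H820 library 5321 and 5777. With so large a share of all genes called, the shares of 27.0% and 27.4% are given as the background for each gene list below. They are a low background for lists of protein-coding genes. Of 15260 such genes, 4718 were higher in H820 and 4785 in H1975, against 1614 and 1625 of 8159 noncoding genes. Among protein-coding genes, 181 had at least 1 CPM in H820 and 0 counts in both H1975 libraries. The reverse held for 84. An error after ± is an approximate standard error of the log2 difference (H820 minus H1975, n = 2 libraries per line). It is the difference divided by the square root of the F statistic of the quasi-likelihood test. It thus draws on the spread in all 8 libraries, and can be too small for genes near 0 counts in a line. Where a line had 0 counts, the fold is a lower bound against a floor of 3 counts over its pair. Where it had 1 to 3 counts, a ratio of levels is given with its counting interval. Bounds and intervals cover counting error only.

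**Figure D1:**
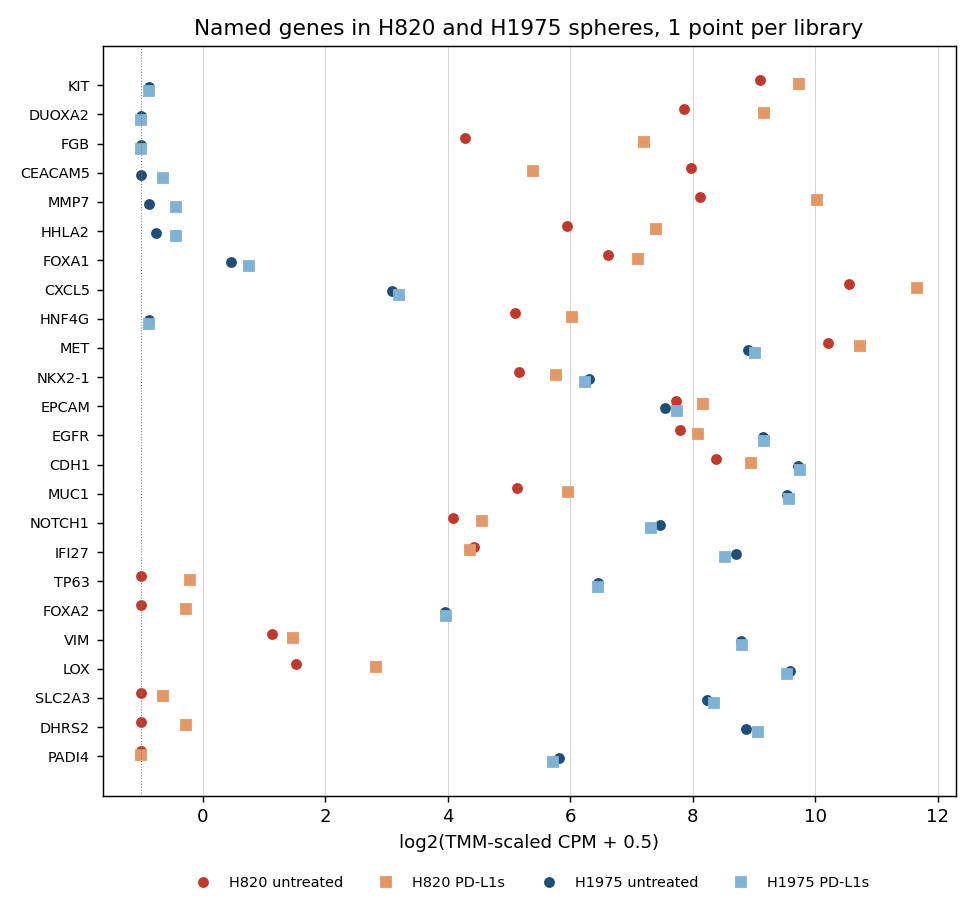
Levels of 24 named genes in the 4 libraries, on a log2(CPM + 0.5) axis with 1 point per library (circles untreated, squares PD-L1s, warm colours H820, cool colours H1975). The dotted line marks 0 CPM. KIT, at 544 and 851 CPM in H820, and DHRS2, at 467 and 537 CPM in H1975, lie near 0 CPM in the other line. EPCAM lies close together in all 4, and NKX2-1 is read in all 4 but higher in H1975.

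The epithelial label held in both lines. EPCAM, a surface protein of epithelial tumours, had 210.4 and 286 CPM in H820 against 186 and 213 CPM in H1975 (log2 difference 0.31 ± 0.16, adjusted p = 0.113), a difference that did not pass the threshold. It passed without the untreated H820 library (0.45). CDH1, the adhesion protein E-cadherin, was high in all libraries but 2.09-fold higher in H1975, with 845 and 862 CPM in H1975 against 331 and 496 CPM in H820 (log2 difference -1.06 ± 0.19, adjusted p = 0.000139). NKX2-1 had 78.6 and 75.3 CPM in H1975 against 35.5 and 53.9 CPM in H820 (log2 difference -0.79 ± 0.18, adjusted p = 0.00101). So every library expressed NKX2-1, and the 2 H1975 values lay above both H820 values.

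The FOXA factors, which open chromatin at endodermal genes, were split between the lines. FOXA1 had 97.4 and 137 CPM in H820 against 0.874 and 1.18 CPM in H1975, a 113-fold difference (log2 difference 6.82 ± 0.21, adjusted p = 8.05e-14). FOXA2 went the other way, at 15.04 and 15.2 CPM in H1975 against 0 and 0.324 CPM in H820 (log2 difference -5.97 ± 0.39, adjusted p = 4.69e-10). FOXA3, the family member best known from liver, had 44.8 and 51.3 CPM in H820 against 0.568 and 0.756 CPM in H1975 (log2 difference 6.17 ± 0.26, adjusted p = 1.78e-12). Each of the 3 genes was therefore near its floor in one line and expressed in the other, with no overlap between the lines. FOXA2 had 0 counts in the untreated H820 library, so no difference without the PD-L1s library is given. FOXA3 lies in a run of 25 neighbouring genes on chromosome 19, of which 21 were higher in H820.

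Several transcription factors that specify gut, liver and pancreas were on the H820 side, though FOXA2, also of liver and pancreas, was not. HNF4G, a nuclear receptor of gut epithelium, had 33.7 and 64.8 CPM in H820 against 0.0437 and 0.0472 CPM in H1975 (a ratio of 1280, 95% counting interval 354 to 10574). The lines did not overlap. CDX2, which sets intestinal identity, had 12.2 and 6.3 CPM in H820 against 0 CPM in H1975 and was at least 111-fold higher in H820. GATA4 was at least 83.3-fold higher, with 0 counts in H1975. Outside that group, RUNX3, a partner of TGF-beta signalling, was at least 225-fold higher, also with 0 counts in H1975. HNF4A, the main hepatocyte member of its family, did not pass the filter on low counts in either line. SOX9, which marks progenitors at the tips of the growing lung, was 5.76-fold higher in H1975, with 143 and 162 CPM in H1975 against 13.2 and 39.98 CPM in H820 (log2 difference -2.53 ± 0.28, adjusted p = 4.00e-07). Of 41 tested lineage factors, 24 were higher in H820 and 9 in H1975 (median log2 difference 1.04, against -0.01 over all genes tested). The SOX9 difference was -3.51 without the PD-L1s H820 library.

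Structural and secreted products of gut and liver were higher in H820 for 14 of the 16 tested members, and 2 were higher in H1975. Their median log2 difference was 7.20, or 5.44 with genes at 0 counts in a line set to their bounds. A gene could pass the filter through 1 line alone. Members read almost only in H820, such as FGB and FGA (at most 0.200 CPM in H23 and 0 in EBC1), could then be called in that direction only. The count and the median follow in part from the filter, as they can for other lists with members near 0 in 1 line. FGB, the beta chain of fibrinogen, had 18.9 and 147 CPM in H820 against 0 CPM in H1975 and was at least 1749-fold higher. FGA, the alpha chain, had 1.69 and 11.7 CPM in H820 against 0 CPM in H1975 and was at least 139.9-fold higher. FGB and FGA were more abundant in the PD-L1s library of H820 than in its untreated library, and absent from every H1975 count. FGG, the gamma chain, was called higher in H820 but was low, at 0.169 and 1.204 CPM. It had 0 and 0.0945 CPM in H1975 and 0.762 and 0.853 CPM in H23.

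CEACAM5, the carcinoembryonic antigen, had 249.6 and 41.5 CPM in H820 against 0 and 0.142 CPM in H1975 (a ratio of 1266, 95% counting interval 433 to 6144). VIL1, the actin bundler villin of intestinal brush borders, had 35.9 and 36.04 CPM in H820 against 0.0874 and 0 CPM in H1975 (a ratio of 793, 95% counting interval 219 to 6555). The H820 libraries were alike in VIL1 but well apart in CEACAM5, where the untreated library was the higher. CEACAM7 (58.3 and 8.71 CPM in H820 and 0.0437 and 0.283 CPM in H1975) was also higher in the untreated H820 library, while KRT20, a keratin of gut epithelium, was at most 2.13 CPM in any of the 4. The members on the H1975 side were SERPINA1, the secreted antitrypsin, with 276 and 326 CPM in H1975 against 89.3 and 156 CPM in H820 (log2 difference -1.32 ± 0.19, adjusted p = 9.96e-06), and TF, the iron carrier transferrin, with at most 1.88 CPM and a call that was lost without either untreated library (-1.23 and -1.24). Of the 36 genes listed, 20 did not pass the filter, among them ALB, AFP and APOB, so the H820 profile held some hepatic and intestinal genes and not the list as a whole.

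Airway secretory genes were uneven. Of 13 tested club and goblet cell genes, 8 were higher in H820 and 3 in H1975 (median 4.04). MUC5AC, the gel-forming mucin of goblet cells, had 46.3 and 9.54 CPM in H820 against 0.0437 and 0.142 CPM in H1975 (log2 difference 8.08 ± 0.50, adjusted p = 4.91e-10), and MUC5B, its partner in airway mucus, had 83.4 and 61.7 CPM in H820 against 1.66 and 1.701 CPM in H1975 (log2 difference 5.41 ± 0.21, adjusted p = 1.77e-12). Both mucins were low in H1975. The MUC5AC difference was 6.02 without the untreated and 9.77 without the PD-L1s H820 library. SPDEF, the factor that drives goblet cell differentiation, had 19.6 and 23.02 CPM in H820 against 0.262 and 0.0472 CPM in H1975 (log2 difference 7.004 ± 0.42, adjusted p = 1.39e-10). LCN2, an iron-binding defence protein, was abundant in both lines and 16.4-fold higher in H820, with 2863 and 3976 CPM in H820 against 197 and 217 CPM in H1975 (log2 difference 4.04 ± 0.27, adjusted p = 5.98e-10). C3, the central complement protein, was on the other side, 11.5-fold higher in H1975 with 828 and 812 CPM in H1975 against 65.1 and 77.5 CPM in H820 (log2 difference -3.53 ± 0.18, adjusted p = 1.12e-11). The canonical club cell secretoglobin SCGB1A1 did not pass the filter. The SPDEF difference was 8.77 without the untreated and 6.09 without the PD-L1s H1975 library, and that of MUC5AC 6.03 and 9.77.

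Mucins differed in both directions. All 12 tested mucins differed, 9 higher in H820 and 3 higher in H1975. Besides MUC5AC and MUC5B, H820 had more of MUC2, the gut gel mucin, at 13.5 and 20.3 CPM in H820 against 0.612 and 0.709 CPM in H1975, and of the membrane mucins MUC13 (22.2 and 16.4 CPM in H820 and 0.175 and 0.0472 CPM in H1975) and MUC20 (199 and 217 CPM in H820 and 10.1 and 11.7 CPM in H1975). H1975 had more of MUC1 and MUC16, membrane mucins that carry the tumour antigens CA15-3 and CA125. MUC1 had 741 and 762 CPM in H1975 against 34.5 and 62.1 CPM in H820 (log2 difference -3.996 ± 0.20, adjusted p = 1.39e-11). MUC16 had 1674 and 1692 CPM in H1975 against 238 and 318 CPM in H820 (log2 difference -2.59 ± 0.23, adjusted p = 2.09e-08). For both genes the lines were apart by far more than the libraries of a line.

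Alveolar genes did not separate the lines as a set. Of 13 tested type 2 cell genes, 5 were higher in H820 and 4 in H1975 (median -0.06), shares near those of all genes. The surfactant genes SFTPB and SFTPC did not pass the filter. SLC34A2, the phosphate carrier of type 2 cells, had 6.09 and 27.5 CPM in H820 against 1.399 and 0.898 CPM in H1975 (log2 difference 3.70 ± 0.45, adjusted p = 1.40e-06), which ranged from 2.23 to 4.74 with either H820 library left out. The lysosomal protease CTSH had 78.3 and 77.1 CPM in H1975 against 15.1 and 15.4 CPM in H820 (log2 difference -2.36 ± 0.17, adjusted p = 1.13e-09). Of 10 type 1 cell genes, 2 were higher in H820 and 4 in H1975, among the latter CAV1, the coat protein of caveolae, at 256 and 263 CPM in H1975 against 18.3 and 44.5 CPM in H820 (log2 difference -3.06 ± 0.26, adjusted p = 1.76e-08). Among 9 ciliated cell genes, 4 were higher in H820, including the ciliary motor DNAH5 at 959 and 985 CPM in H820 against 84.6 and 90.04 CPM in H1975 (log2 difference 3.48 ± 0.17, adjusted p = 1.27e-11), and 2 in H1975. The CAV1 difference was -3.83 without the PD-L1s H820 library, and that of SLC34A2 was 4.72 without the untreated and 2.50 without the PD-L1s H1975 library.

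Genes of squamous and basal epithelium lay on the H1975 side. Of 28 tested members, 18 were higher in H1975 and 3 in H820, with a median log2 difference of -1.96 (-1.70 with genes at 0 set to their bounds). TP63, the factor that keeps basal cells, had 87.3 and 86.9 CPM in H1975 against 0 and 0.371 CPM in H820 (log2 difference -8.19 ± 0.33, adjusted p = 9.35e-13). SERPINB5, the epithelial serpin maspin, had 58.5 and 57.8 CPM in H1975 against 0 and 0.417 CPM in H820 (log2 difference -7.49 ± 0.31, adjusted p = 1.34e-12), and FAT2, an atypical cadherin of squamous epithelium, had 143 and 140.4 CPM in H1975 against 2.37 and 2.13 CPM in H820 (log2 difference -5.99 ± 0.21, adjusted p = 2.80e-13). In EBC1, the squamous line of the series, TP63 was lower than in H1975, at 0.192 and 0.313 CPM. The keratins KRT5, KRT6A and KRT14, which define basal cells, did not pass the filter. KRT6A had 119 counts in the PD-L1s library of H1975 and 2 in its untreated library, so the H1975 libraries differed in it. Among the exceptions were SOX2 (15.6 and 13.2 CPM in H820 and 4.98 and 4.06 CPM in H1975), a foregut and squamous factor, and S100A7, which has a near-identical copy and was not called without the PD-L1s H820 library (1.14). TP63 and SERPINB5 had 0 counts in the untreated H820 library, so no difference without the PD-L1s library is given.

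Adhesion and keratin genes of epithelium were present in both lines. Of 30 tested, 6 were higher in H820 and 14 in H1975 (median -0.29). The keratin pair KRT8 and KRT18 was higher in H1975, with 925 and 972 CPM in H1975 against 212 and 277 CPM in H820 for KRT8 (log2 difference -1.97 ± 0.19, adjusted p = 6.73e-08). CDH3, P-cadherin, had 822 and 841 CPM in H1975 against 89.6 and 138 CPM in H820 (log2 difference -2.89 ± 0.19, adjusted p = 4.91e-10) and DSP, the desmosome linker desmoplakin, had 651 and 688 CPM in H1975 against 115 and 199.6 CPM in H820 (log2 difference -2.11 ± 0.21, adjusted p = 1.10e-07). On the H820 side, RAB25, a GTPase of epithelial recycling, had 40.4 and 45.2 CPM in H820 against 2.84 and 3.07 CPM in H1975 (log2 difference 3.85 ± 0.22, adjusted p = 5.96e-11), and SPINT2, an inhibitor of membrane serine proteases, had 1232 and 1520 CPM in H820 against 176 and 165 CPM in H1975 (log2 difference 3.01 ± 0.21, adjusted p = 9.55e-10). The difference depended on the library for the list as a whole, with a median of -0.69 between the untreated libraries and -0.07 between the PD-L1s libraries.

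H1975 kept its epithelial genes beside genes of the mesenchymal state. Of 32 tested, 17 were higher in H1975 and 4 in H820 (median -1.97, or -1.66 with genes at 0 set to their bounds). VIM, the intermediate filament vimentin, had 443 and 447 CPM in H1975 against 1.69 and 2.27 CPM in H820, a 213-fold difference (log2 difference -7.73 ± 0.25, adjusted p = 1.23e-13). LOX, which crosslinks collagen, had 768 and 743 CPM in H1975 against 2.37 and 6.58 CPM in H820 (log2 difference -7.27 ± 0.28, adjusted p = 7.16e-13). MYL9, a myosin light chain of contractile cells, had 20.6 and 22.01 CPM in H1975 against 0 CPM in H820, at least 195-fold. All 3 genes were near 0 or low in both H820 libraries and high in both H1975 libraries. The LOX difference was -8.29 without the PD-L1s H820 library.

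The same list did not move as 1 block. SNAI1, a repressor of E-cadherin, had 57.4 and 62.1 CPM in H1975 against 4.905 and 12.1 CPM in H820 (log2 difference -2.72 ± 0.25, adjusted p = 3.70e-08), whereas ZEB1 (5.55 and 4.58 CPM in H1975 and 3.72 and 4.31 CPM in H820, adjusted p = 0.294), AXL (16.5 and 16.3 CPM in H1975 and 11.8 and 17.7 CPM in H820, adjusted p = 0.544) and FN1 (1319 and 1291 CPM in H1975 and 504 and 1447 CPM in H820, adjusted p = 0.0795) did not pass. FN1 passed without the PD-L1s library of H820 (-1.31) or of H1975 (-1.02). CDH2, N-cadherin, which replaces E-cadherin in full transition, had at most 0.0874 CPM in these libraries. In H23, which is left out of the contrast, VIM had 903 and 820.2 CPM. The summed level of the list was 6038 and 6078 CPM in H1975, 1585 and 1512 CPM in H23 and 1228 and 2551 CPM in H820. In EBC1 it was 2602 and 3094 CPM. Abundant members such as FN1 and LOX weigh most in such a sum, while VIM was higher in H23 than in H1975. The sum therefore does not rank the lines by mesenchymal state. The SNAI1 difference was -3.62 without the PD-L1s H820 library.

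**Figure D2:**
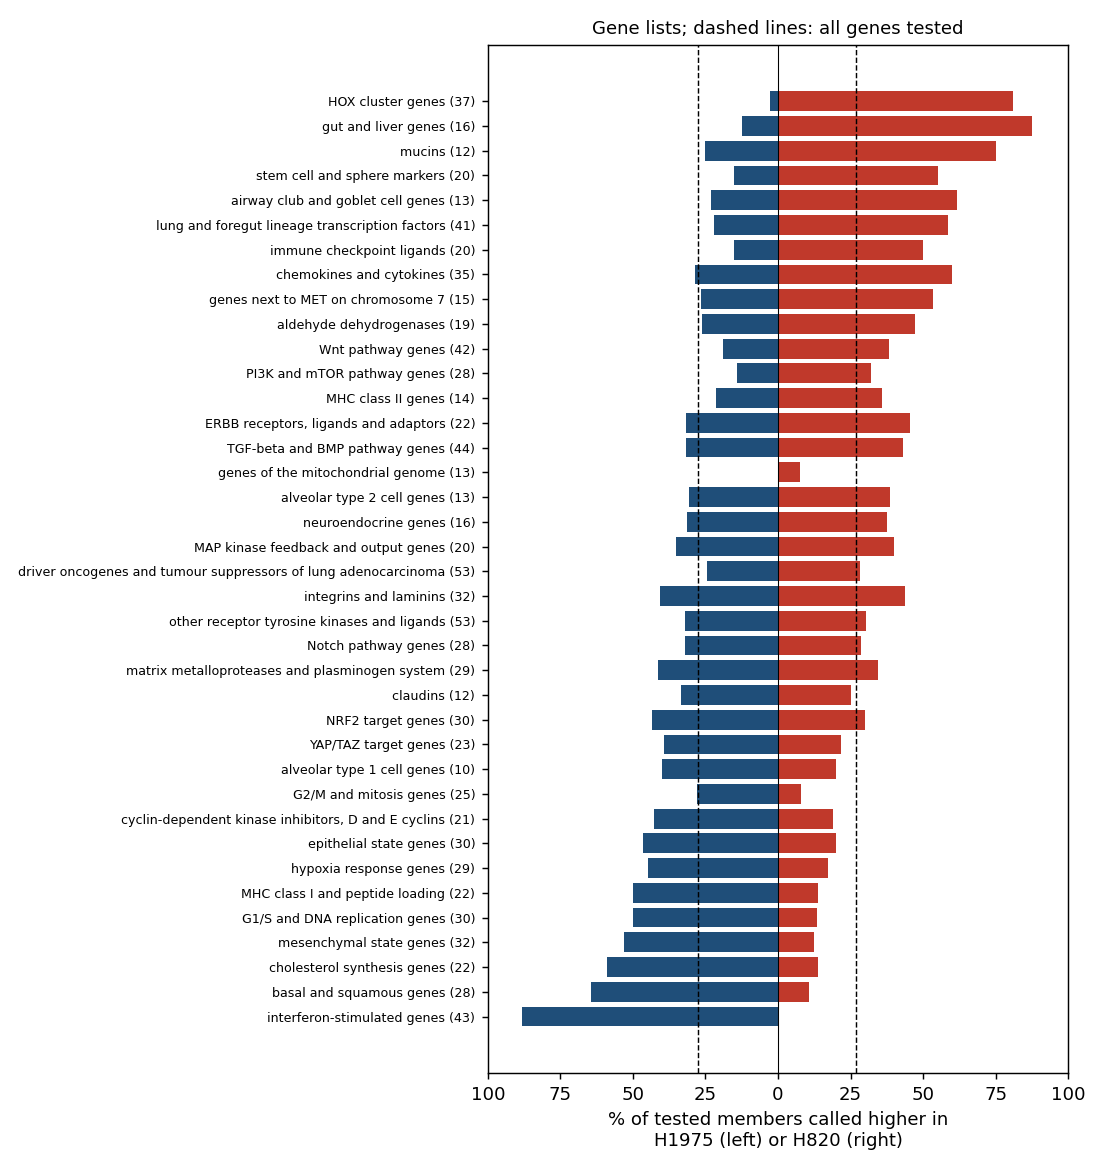
Share of tested members of each list called higher in H820 (bars to the right, in %) or in H1975 (bars to the left, in %), for the lists shown, each with at least 10 tested members, whose number stands in brackets. The dashed lines are the shares over all genes tested, 27.0% and 27.4%. HOX cluster and gut and liver genes reach furthest right, and interferon-stimulated and basal and squamous genes furthest left.

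Among growth factor receptors, MET was higher in H820 and EGFR in H1975. MET had 1175 and 1701 CPM in H820 against 478 and 515 CPM in H1975, a 2.87-fold difference (log2 difference 1.52 ± 0.21, adjusted p = 7.41e-06). EGFR had 566 and 571 CPM in H1975 against 222 and 271 CPM in H820, 2.31-fold in the other direction (log2 difference -1.21 ± 0.16, adjusted p = 4.80e-06). ERBB3, the kinase-poor partner that recruits PI3K, had 237 and 349 CPM in H820 against 207 and 217 CPM in H1975 (log2 difference 0.45 ± 0.17, adjusted p = 0.0267), a call that was lost without the PD-L1s H820 library (0.17) or either H1975 library (0.53 and 0.34). ERBB2 had 168 and 165 CPM in H1975 and 127 and 175 CPM in H820 and did not pass (adjusted p = 0.43). MET was higher in each H820 library than in either H1975 library, and EGFR the reverse.

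The ligands of EGFR were exchanged between the lines. EGF itself had 25.9 and 26.6 CPM in H820 against 0.874 and 1.04 CPM in H1975 (log2 difference 4.77 ± 0.26, adjusted p = 4.14e-11). EREG, epiregulin, had 284 and 291 CPM in H820 against 20.8 and 21.4 CPM in H1975 (log2 difference 3.77 ± 0.17, adjusted p = 3.04e-12). TGFA, another EGFR ligand, had 78.8 and 89.4 CPM in H1975 against 11.3 and 13.5 CPM in H820 (log2 difference -2.76 ± 0.16, adjusted p = 1.05e-10). H820 thus had more EGF and EREG and H1975 more TGFA. NRG1, the ligand of ERBB3 and ERBB4, had 14.6 and 13.8 CPM in H1975 against 0.507 and 1.25 CPM in H820 (log2 difference -3.75 ± 0.32, adjusted p = 1.83e-08). AREG was higher in H820 (7.44 and 5.28 CPM in H820 and 1.44 and 1.701 CPM in H1975) and HBEGF in H1975 (6.34 and 7.61 CPM in H1975 and 1.86 and 2.13 CPM in H820). Of 22 tested receptors, ligands and adaptors of this family, 10 were higher in H820 and 7 in H1975. The NRG1 difference was -4.84 without the PD-L1s H820 library.

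KIT showed the largest difference among the other receptor kinases and ligands tested. KIT, the receptor of stem cell factor, had 544 and 851 CPM in H820 against 0.0437 and 0.0472 CPM in H1975 (a ratio of 17280, 95% counting interval 4783 to 142699), that is 3218 and 18364 counts against 1 count in each H1975 library. Its ligand KITLG was expressed in both lines and 4.97-fold higher in H1975, with 63.3 and 62.5 CPM in H1975 against 10.5 and 14.3 CPM in H820 (log2 difference -2.31 ± 0.17, adjusted p = 2.06e-09). In H23 and EBC1 KIT was at 1.08 and 1.104 and 0.192 and 0.0894 CPM. The receptor and its ligand were thus higher in opposite lines.

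Of the 53 other tested receptor kinases and ligands, 16 were higher in H820 and 17 in H1975. FGFR3, a fibroblast growth factor receptor, had 101 and 125 CPM in H820 against 5.25 and 4.96 CPM in H1975 (log2 difference 4.46 ± 0.18, adjusted p = 1.11e-12). INSR, the insulin receptor, had 198 and 266 CPM in H820 against 90.7 and 87.4 CPM in H1975 (log2 difference 1.37 ± 0.16, adjusted p = 1.12e-06). Both were higher in each H820 library. EPHB4, a receptor of ephrin B2, had 336 and 318 CPM in H1975 against 107 and 131 CPM in H820 (log2 difference -1.46 ± 0.18, adjusted p = 1.39e-06), and its ligand EFNB2 had 55.05 and 53.1 CPM in H1975 against 16.6 and 11.1 CPM in H820 (log2 difference -2.03 ± 0.20, adjusted p = 8.34e-08). CSF1R, the macrophage colony-stimulating factor receptor, had 22.8 and 22.7 CPM in H1975 against 0.507 and 0.973 CPM in H820 (log2 difference -4.74 ± 0.33, adjusted p = 9.95e-10), higher in both H1975 libraries, and PDGFA, a growth factor for stromal cells, had 63.3 and 56.9 CPM in H1975 against 3.21 and 5.33 CPM in H820 (log2 difference -3.72 ± 0.21, adjusted p = 8.60e-11). The CSF1R difference was -5.50 without the PD-L1s H820 library.

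Feedback genes of the MAP kinase pathway were mixed, with 8 of 20 higher in H820 and 7 in H1975. DUSP6, a phosphatase that follows ERK activity, had 17.5 and 24.7 CPM in H1975 and 22.2 and 14.6 CPM in H820 and did not pass (adjusted p = 0.375), though it did without the untreated H820 library (-0.72). MYC, an output of the pathway, had 329.6 and 434 CPM in H1975 against 99.3 and 177 CPM in H820 (log2 difference -1.48 ± 0.19, adjusted p = 3.90e-06). In each line the PD-L1s library had the higher MYC value.

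The PI3K pathway differed at single enzymes more than as a set (9 of 28 higher in H820, 4 in H1975). AKT2, a central kinase of insulin signalling, had 534 and 609 CPM in H820 against 41.8 and 41.3 CPM in H1975, a 13.7-fold difference (log2 difference 3.78 ± 0.17, adjusted p = 4.09e-12). Its relative AKT1 had 187 and 186 CPM in H1975 and 138 and 162 CPM in H820 (adjusted p = 0.0989) and passed without the PD-L1s H820 library (-0.44). SGK1, a kinase related to AKT, had 242 and 567 CPM in H820 against 22.7 and 25.8 CPM in H1975 (log2 difference 3.999 ± 0.25, adjusted p = 2.57e-10). IRS2, an insulin receptor substrate, had 168 and 154 CPM in H1975 against 25.2 and 29.7 CPM in H820 (log2 difference -2.56 ± 0.18, adjusted p = 1.48e-09). AKT2 and SGK1 were thus higher in both H820 libraries, and IRS2 in both H1975 libraries. The SGK1 difference was 3.34 without the PD-L1s H820 library.

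Of 53 tested drivers and suppressors of lung adenocarcinoma, 15 were higher in H820 and 13 in H1975, with a median of 0.00. CDKN2A, which encodes the cell cycle inhibitor p16, had 168 and 203 CPM in H820 against 60.3 and 66.7 CPM in H1975 (log2 difference 1.54 ± 0.17, adjusted p = 3.12e-07). KEAP1, the adaptor that degrades NRF2, had 57.1 and 51.97 CPM in H1975 against 32.5 and 29.8 CPM in H820 (log2 difference -0.81 ± 0.17, adjusted p = 0.00051). Both differed by less than 4-fold. STK11 (54.1 and 58.7 CPM in H820 and 57.1 and 55.1 CPM in H1975, adjusted p = 1) and PIK3CA (74.02 and 73.3 CPM in H1975 and 57.2 and 73.1 CPM in H820, adjusted p = 0.344) did not pass. PIK3CA passed without the PD-L1s H820 library (-0.40). LRP1B, a large endocytic receptor often deleted in lung cancer, had 9.13 and 9.403 CPM in H820 against 0 CPM in H1975 and was at least 137-fold higher in H820.

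Interferon-stimulated genes lay almost all on the H1975 side. All 43 passed the filter, 38 were higher in H1975 and 0 in H820 (median log2 difference -1.97). The median was -1.89 between the untreated libraries and -1.89 between the PD-L1s libraries, so both pairs gave the same distance. These genes are switched on by interferon through the factor ISGF3, of which STAT2 and IRF9 are subunits and which binds the interferon-stimulated response element.

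The promoters of 5 of these genes are shown because they carry letters of that element. The letters searched were GAAA, any 2 bases, then GAAA, on both strands of the window from 250 bases before to 50 bases after the start (RefSeq, GRCh38.p14). A match is not evidence of binding. They lay in 21 of the 32 promoters found for the list (65.6%) and in 2.95% of the 11146 promoters of tested protein-coding genes. Capitals mark every match in the stretch. Those of IFIT1 lie on the opposite strand, as does the first of the pair in IFI27. The stretches are chr1:1013354-1013423 (plus strand), chr10:89392477-89392546 (plus), chr14:94110598-94110667 (plus), chr12:112938301-112938370 (plus) and chr1:27672309-27672378 (minus), all GRCh38.p14.
ISG15: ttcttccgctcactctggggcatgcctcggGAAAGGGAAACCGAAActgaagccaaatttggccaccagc
IFIT1: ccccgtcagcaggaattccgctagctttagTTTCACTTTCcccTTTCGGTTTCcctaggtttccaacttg
IFI27: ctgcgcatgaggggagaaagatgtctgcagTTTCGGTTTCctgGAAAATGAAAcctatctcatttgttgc
OAS3: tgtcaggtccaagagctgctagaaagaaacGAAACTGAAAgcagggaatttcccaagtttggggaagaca
IFI6: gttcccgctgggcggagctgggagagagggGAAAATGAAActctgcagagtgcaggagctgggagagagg

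IFIT1, which binds viral RNA caps, had 107 and 118 CPM in H1975 against 4.57 and 1.67 CPM in H820, a 44.2-fold difference (log2 difference -5.47 ± 0.27, adjusted p = 9.93e-12). IFI27, a mitochondrial membrane protein and a sensitive interferon marker, had 415 and 367 CPM in H1975 against 21.1 and 20.01 CPM in H820 (log2 difference -4.25 ± 0.18, adjusted p = 1.81e-12). ISG15, a ubiquitin-like modifier, had 67.9 and 65.6 CPM in H1975 against 11.8 and 10.9 CPM in H820 (log2 difference -2.58 ± 0.21, adjusted p = 6.83e-09). For each of these genes the 2 H1975 libraries were close together and far above both H820 libraries. OAS2 and OAS3, which make the activator of RNase L, had 85.8 and 85.4 CPM in H1975 against 3.72 and 2.32 CPM in H820 and 257 and 257 CPM in H1975 against 30.4 and 25.2 CPM in H820. RSAD2, the antiviral enzyme viperin, had 15.9 and 17.9 CPM in H1975 against 0 and 0.0926 CPM in H820 (a ratio of 232, 95% counting interval 63.9 to 1917), and its genomic neighbour CMPK2 had 16.4 and 16.3 CPM in H1975 against 0.169 and 0 CPM in H820 (a ratio of 449.6, 95% counting interval 80.4 to 17783). Both were close to unread in H820. The IFIT1 difference was -4.66 without the PD-L1s H820 library.

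Among the regulators, STAT2 had 123 and 124 CPM in H1975 and 89.8 and 119 CPM in H820 and did not pass (adjusted p = 0.173), though it did without the PD-L1s H820 library (-0.45). IRF9 had 91.7 and 97.98 CPM in H1975 against 41.1 and 44.8 CPM in H820 (log2 difference -1.14 ± 0.14, adjusted p = 2.54e-06), though a readthrough transcript shares its sequence. IRF7, which amplifies the response, had 74.6 and 67.4 CPM in H1975 against 9.81 and 15.4 CPM in H820 (log2 difference -2.48 ± 0.19, adjusted p = 4.90e-09). GBP2, ISG20 and TRIM22 were other members that did not pass, and GBP2 is best known as a target of interferon gamma. GBP2 was 0.48 without the untreated H820 library, on the H820 side, and -0.71 without the PD-L1s library.

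**Figure D3:**
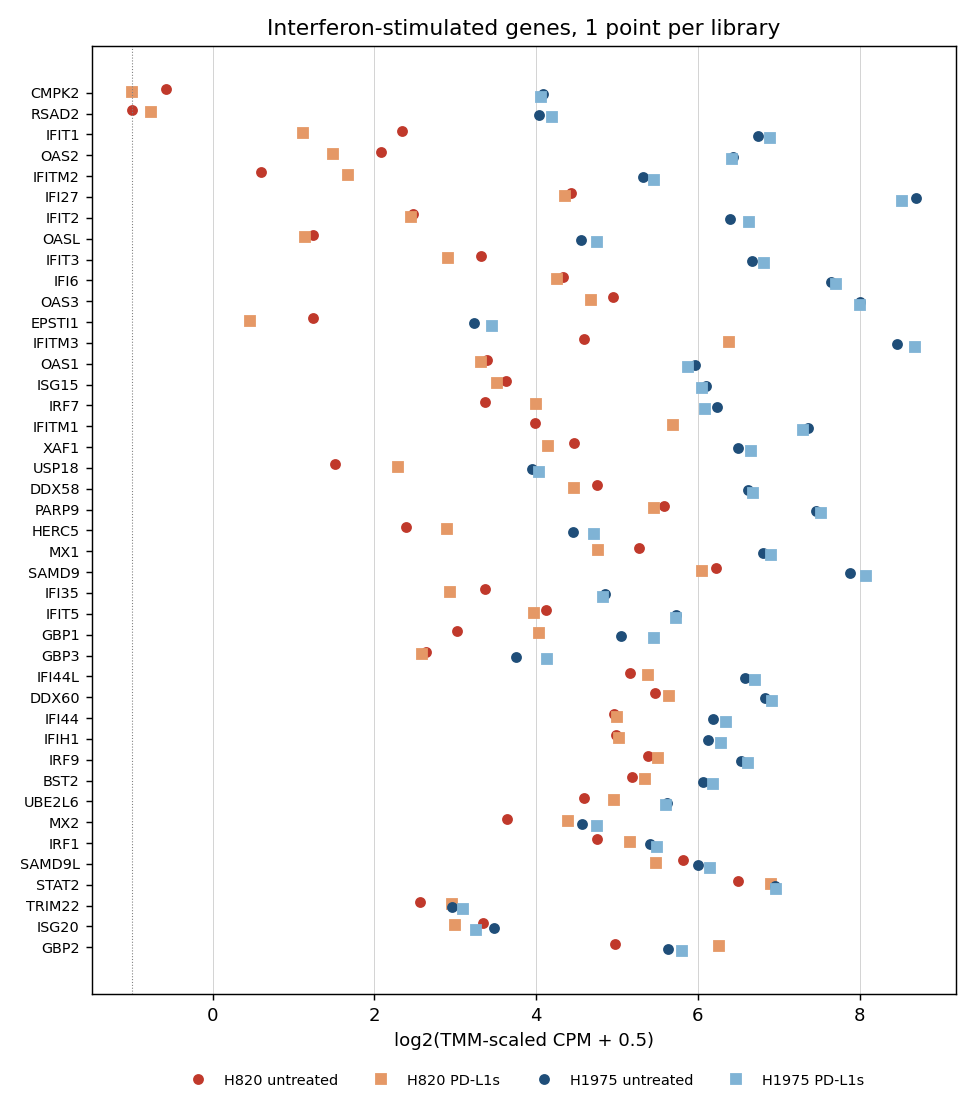
Interferon-stimulated genes in the 4 libraries, on a log2(CPM + 0.5) axis, ordered by the fitted log2 difference from the most to the least on the H1975 side (circles untreated, squares PD-L1s, warm colours H820, cool colours H1975). The H1975 points lie to the right for 38 called genes, from CMPK2 and RSAD2 at the top. At the bottom the lines overlap for GBP2.

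Antigen presentation differed in part. Of 22 tested genes of MHC class I and peptide loading, 11 were higher in H1975 and 3 in H820. For this list the difference depended on the library, with a median of -0.75 between the untreated libraries and -0.08 between the PD-L1s libraries. TAP1, a subunit of the peptide transporter, had 49.3 and 46.01 CPM in H1975 against 8.96 and 18.1 CPM in H820 (log2 difference -1.79 ± 0.21, adjusted p = 9.68e-07). ERAP2, which trims peptides, had 56.2 and 65.1 CPM in H1975 against 5.24 and 6.81 CPM in H820 (log2 difference -3.33 ± 0.18, adjusted p = 3.56e-11), and NLRC5, the activator of class I genes, had 25.9 and 23.7 CPM in H1975 against 9.81 and 10.7 CPM in H820 (log2 difference -1.27 ± 0.18, adjusted p = 7.94e-06). The heavy chain gene HLA-B (771 and 804 CPM in H1975 and 551 and 859.7 CPM in H820, adjusted p = 0.454) and the light chain gene B2M (644 and 929.9 CPM in H820 and 569.9 and 639 CPM in H1975, adjusted p = 0.11) did not pass. Without the untreated H820 library HLA-B was at 0.050, and without the PD-L1s library it passed at -0.46. B2M passed without the untreated H820 library (0.59). HLA alleles differ between lines and were aligned to 1 reference, so levels of HLA genes are uncertain. CIITA, the activator of class II genes, had 30.3 and 32.1 CPM in H1975 against 8.79 and 10.6 CPM in H820 (log2 difference -1.67 ± 0.19, adjusted p = 5.36e-07), and of 14 class II genes 5 were higher in H820 and 3 in H1975.

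Ligands of immune checkpoints were more often higher in H820 (10 of 20, against 3 in H1975, median 0.57). CD274, the gene for PD-L1 itself, had 24.4 and 45.2 CPM in H820 against 9.31 and 11.9 CPM in H1975, a 3.26-fold difference (log2 difference 1.71 ± 0.20, adjusted p = 1.26e-06). HHLA2, a B7 family ligand of intestinal epithelium, had 61.2 and 168 CPM in H820 against 0.0874 and 0.236 CPM in H1975 (log2 difference 9.41 ± 0.28, adjusted p = 1.31e-13). CD274 was read in both lines and HHLA2 close to 0 in H1975. ICOSLG, the ligand of ICOS, had 90.3 and 72.8 CPM in H820 against 5.03 and 5.43 CPM in H1975 (log2 difference 3.95 ± 0.19, adjusted p = 7.20e-12), and NECTIN2, a ligand of TIGIT, had 283 and 360.1 CPM in H820 against 43.7 and 36.4 CPM in H1975 (log2 difference 2.99 ± 0.20, adjusted p = 6.67e-10). The H1975 side held CD70, the ligand of CD27, with 16.05 and 12.7 CPM in H1975 against 0 and 0.556 CPM in H820 (log2 difference -4.99 ± 0.40, adjusted p = 6.36e-09), CD276 (90.6 and 91.9 CPM in H1975 and 65.8 and 65.1 CPM in H820) and TNFSF9 (19.4 and 15.4 CPM in H1975 and 7.103 and 9.59 CPM in H820). CD276 was not called without the untreated (-0.45) or the PD-L1s (-0.55) library of H1975. CD70 had 0 counts in the untreated H820 library, so no difference without the PD-L1s library is given.

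Neutrophil-attracting chemokines were abundant in H820. CXCL5 had 1501 and 3225 CPM in H820 against 8.001 and 8.74 CPM in H1975, a 269-fold difference (log2 difference 8.07 ± 0.32, adjusted p = 9.35e-13). CXCL6 had 858 and 1223 CPM in H820 against 2.97 and 3.21 CPM in H1975 (log2 difference 8.37 ± 0.23, adjusted p = 2.88e-14), and CXCL8, interleukin 8, had 335 and 399 CPM in H820 against 72.9 and 86.3 CPM in H1975 (log2 difference 2.20 ± 0.17, adjusted p = 5.35e-09). The same direction held for CXCL1, CXCL2 and CXCL3, whose genes lie in the same cluster on chromosome 4. CCL20, which attracts cells through CCR6, had 35.01 and 84.96 CPM in H820 against 4.15 and 3.54 CPM in H1975 (log2 difference 3.87 ± 0.27, adjusted p = 9.16e-10), and IL23A, a subunit of interleukin 23, had 19.1 and 46.9 CPM in H820 against 0.481 and 0.331 CPM in H1975 (log2 difference 6.24 ± 0.35, adjusted p = 5.18e-11). Of 35 tested chemokines and cytokines 21 were higher in H820 and 10 in H1975, the latter including IL6 (6.56 and 11.5 CPM in H1975 and 0 and 1.204 CPM in H820), LIF (157 and 152 CPM in H1975 and 24.2 and 81.99 CPM in H820) and CCL5 (4.11 and 4.02 CPM in H1975 and 0 and 0.139 CPM in H820). The LIF difference was -0.94 without the untreated and -2.67 without the PD-L1s H820 library. CCL5 is also induced by interferon and was on the same side as the genes of that list, but a link was not tested. The chemokines CXCL9 and CXCL10 did not pass the filter on low counts. The CCL20 difference was 4.54 without the untreated and 3.09 without the PD-L1s H820 library, and 4.46 and 3.20 without those of H1975. Without the PD-L1s H820 library CXCL5 was at 7.48 and IL23A at 5.61, and without the untreated and PD-L1s H1975 libraries IL23A was at 7.001 and 5.42.

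DUOX2, the hydrogen peroxide generator of thyroid, gut and airway, had 1207 and 2167 CPM in H820 against 1.97 and 2.46 CPM in H1975 (log2 difference 9.53 ± 0.30, adjusted p = 8.05e-14). Its maturation factor DUOXA2 had 231 and 572 CPM in H820 against 0 CPM in H1975 and was at least 7318-fold higher in H820. This bound was the largest among genes with 0 counts in a line, and both H820 libraries were high.

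Notch genes differed in both directions, with receptors and ligands on each side. NOTCH1 had 177 and 159.6 CPM in H1975 against 16.4 and 23.02 CPM in H820 (log2 difference -3.10 ± 0.19, adjusted p = 1.86e-10), and JAG1, a ligand, had 195 and 194 CPM in H1975 against 26.4 and 26.4 CPM in H820 (log2 difference -2.88 ± 0.16, adjusted p = 5.28e-11). The targets HES1 (56.4 and 59.7 CPM in H1975 and 19.3 and 32.3 CPM in H820) and HEY1 (10.1 and 9.35 CPM in H1975 and 1.18 and 1.85 CPM in H820) passed in the same direction, and HES2 had 35.3 and 36.05 CPM in H1975 against 0.846 and 0.8801 CPM in H820 (log2 difference -5.34 ± 0.25, adjusted p = 3.87e-12). DLL3, a ligand that inhibits the pathway in its own cell, had 16.2 and 15.9 CPM in H820 against 1.57 and 1.89 CPM in H1975 (log2 difference 3.21 ± 0.24, adjusted p = 3.57e-09). Over the list, 8 of 28 were higher in H820 and 9 in H1975.

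Wnt pathway genes were higher in H820 for 16 of 42 and in H1975 for 8. DKK3, a secreted protein of the Dickkopf family, had 14.7 and 21.3 CPM in H820 against 0 CPM in H1975 and was at least 292-fold higher in H820. Among nuclear factors, LEF1 had 3.38 and 2.96 CPM in H820 against 0 CPM in H1975, at least 44.8-fold, while its relative TCF7 had 8.44 and 8.83 CPM in H1975 against 0 and 0.0926 CPM in H820 (a ratio of 119, 95% counting interval 32.6 to 983). NKD1, a feedback inhibitor, had 51.7 and 52.2 CPM in H1975 against 0.676 and 0.5095 CPM in H820 (log2 difference -6.56 ± 0.26, adjusted p = 9.35e-13), and the ligand WNT9A had 53.7 and 49.04 CPM in H1975 against 1.35 and 1.07 CPM in H820 (log2 difference -5.49 ± 0.26, adjusted p = 6.33e-12). AXIN2, the most used readout of the canonical pathway, had 2.03 and 2.32 CPM in H820 and 1.53 and 1.75 CPM in H1975 and did not pass (adjusted p = 0.245).

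Of 44 genes of TGF-beta and BMP signalling, 19 were higher in H820 and 14 in H1975. ID3, a target of BMP, had 32.4 and 30.5 CPM in H1975 against 3.38 and 4.401 CPM in H820 (log2 difference -2.96 ± 0.20, adjusted p = 5.93e-10), and ID4 had 7.87 and 5.86 CPM in H1975 against 0 CPM in H820, at least 63.3-fold. FSTL1, a secreted glycoprotein, had 112 and 258 CPM in H820 against 28.6 and 27.5 CPM in H1975 (log2 difference 2.65 ± 0.23, adjusted p = 1.91e-08), and BMP3 had 13.2 and 14.5 CPM in H820 against 0 and 0.189 CPM in H1975 (log2 difference 7.14 ± 0.53, adjusted p = 2.19e-09). ID3 and ID4 were thus on the H1975 side, and FSTL1 and BMP3 on the H820 side. TGFB1 itself had 172 and 184 CPM in H1975 against 67.3 and 99.5 CPM in H820 (log2 difference -1.09 ± 0.18, adjusted p = 4.92e-05). Targets of YAP and TAZ gave 5 of 23 higher in H820 and 9 in H1975. PTPN14, a target and inhibitor of YAP, had 222 and 229 CPM in H1975 against 36.2 and 51.5 CPM in H820 (log2 difference -2.36 ± 0.17, adjusted p = 1.60e-09). The FSTL1 difference was 1.99 without the PD-L1s H820 library, and that of BMP3 was 6.24 without the untreated H1975 library, in which it had 0 counts.

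Markers used for stem-like cells were more often higher in H820. PROM1, the surface protein CD133, had 3.55 and 6.86 CPM in H820 against 0.0437 and 0 CPM in H1975 (a ratio of 271, 95% counting interval 47.9 to 10752). CD44, the hyaluronan receptor, had 623 and 649.8 CPM in H1975 against 178 and 277 CPM in H820 (log2 difference -1.50 ± 0.19, adjusted p = 2.17e-06), and ABCG2, the drug pump behind the side population, had 8.48 and 10.2 CPM in H1975 against 0.338 and 0.139 CPM in H820 (log2 difference -5.61 ± 0.43, adjusted p = 3.59e-09). PROM1 was on the H820 side, as were ABCB1 and CXCR4, while CD44, ABCG2 and ITGA6 were on the H1975 side. ALDH1A3, known as a main aldehyde dehydrogenase of lung cancer stem-like cells, had 512 and 275 CPM in H820 against 13.5 and 12.3 CPM in H1975 (log2 difference 4.90 ± 0.24, adjusted p = 9.15e-12). ALDH3B1 was on the H1975 side with 74.6 and 74.6 CPM in H1975 against 7.78 and 11.2 CPM in H820 (log2 difference -2.97 ± 0.20, adjusted p = 5.93e-10). Over the lists, 11 of 20 stem cell and sphere markers and 9 of 19 aldehyde dehydrogenases were higher in H820, and 3 and 5 in H1975. The ABCG2 difference was -4.77 without the PD-L1s H820 library.

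Receptors for matrix differed in both directions. Of 32 integrin and laminin genes, 14 were higher in H820 and 13 in H1975. ITGB8, which activates latent TGF-beta, had 346 and 454 CPM in H820 against 18.1 and 14.7 CPM in H1975 (log2 difference 4.61 ± 0.19, adjusted p = 1.62e-12), and LAMB1, a laminin chain, had 175 and 209 CPM in H820 against 3.45 and 2.93 CPM in H1975 (log2 difference 5.90 ± 0.22, adjusted p = 3.95e-13). ITGA2, a collagen receptor subunit, had 605 and 594 CPM in H1975 against 59.2 and 59.9 CPM in H820 (log2 difference -3.33 ± 0.18, adjusted p = 3.98e-11). The collagen receptor was high in H1975 and present in H820. ITGA5, the fibronectin receptor subunit, had 681 and 624 CPM in H1975 against 103 and 143 CPM in H820 (log2 difference -2.41 ± 0.18, adjusted p = 3.08e-09), and ITGB4, of hemidesmosomes, had 269 and 269 CPM in H1975 against 52.3 and 62.4 CPM in H820 (log2 difference -2.23 ± 0.16, adjusted p = 1.49e-09). The 2 subunits named first were on the H820 side in every library, and the 3 named last on the H1975 side.

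Among 29 proteases and inhibitors, 10 were higher in H820 and 12 in H1975. MMP7, matrilysin, a protease of glandular epithelium, had 278 and 1046 CPM in H820 against 0.0437 and 0.236 CPM in H1975 (log2 difference 12.04 ± 0.48, adjusted p = 9.14e-13). TMPRSS2, a membrane serine protease of epithelium, had 110.1 and 144 CPM in H820 against 1.66 and 1.18 CPM in H1975 (log2 difference 6.46 ± 0.24, adjusted p = 4.65e-13). Both were nearly unread in H1975. MMP14, a membrane-bound collagenase, had 259 and 279 CPM in H1975 against 53.4 and 87.6 CPM in H820 (log2 difference -1.94 ± 0.20, adjusted p = 1.65e-07). MMP28 had 11.9 and 12.3 CPM in H1975 against 0 CPM in H820, at least 111-fold. MMP7 differed between the H820 libraries too, and both lay far above H1975. The MMP7 difference was 12.82 without the untreated and 10.92 without the PD-L1s H820 library, and 12.81 without the PD-L1s H1975 library.

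HOX genes, which set position along the body axis, were higher in H820 for 30 of 37 tested members and higher in H1975 for 1. The median log2 difference was 3.92, or 2.80 with genes at 0 set to their bounds. With 0.5 CPM added to each level, it was 1.58 between the untreated and 2.02 between the PD-L1s libraries. As with the gut and liver genes, a member could pass the filter through 1 line alone. The count and the median of the HOX genes thus follow in part from the filter. HOXB6 had 28.6 and 30.02 CPM in H820 against 0 and 0.0472 CPM in H1975 (a ratio of 1308, 95% counting interval 234 to 51738). HOXB3 had 30.8 and 46.4 CPM in H820 against 0.0874 and 0 CPM in H1975 (a ratio of 948, 95% counting interval 262 to 7837). HOXB4, HOXB5 and HOXB7 lay between 13.5 and 15.6 CPM for HOXB5 and 18.6 and 23.2 CPM for HOXB4 in H820, and each had at most 0.142 CPM in H1975. The HOXB cluster was thus expressed in H820 and nearly silent in H1975. The HOXD members were lower, with HOXD8 at 5.92 and 5.79 CPM in H820 against 0 CPM in H1975, at least 85.4-fold. In the HOXC cluster both lines had reads, for example HOXC10 at 19.8 and 23.2 CPM in H820 against 1.09 and 0.8504 CPM in H1975 (log2 difference 4.48 ± 0.26, adjusted p = 7.34e-11) and HOXC8 at 6.43 and 6.72 CPM in H820 and 5.51 and 6.57 CPM in H1975 (adjusted p = 0.655). HOXA7, the member on the H1975 side, had at most 0.567 CPM and was not called without the PD-L1s library of H820 (-5.66) or of H1975 (-3.61), so no HOX gene was abundant in H1975 alone.

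Some lists differed between the 2 libraries of H820 by as much as between the lines. G2 and mitosis genes had a median log2 difference of -1.71 between the untreated libraries and 0.26 between the PD-L1s libraries. MKI67, a proliferation marker, had 189 and 206 CPM in H1975 against 21.1 and 167 CPM in H820 (log2 difference -1.24 ± 0.45, adjusted p = 0.0272), and TOP2A had 177 and 189 CPM in H1975 and 48.9 and 299 CPM in H820 (adjusted p = 0.603). For both, the untreated H820 library was the low one and the PD-L1s library was near or above H1975. Without the untreated H820 library MKI67 was no longer called (log2 difference -0.22, adjusted p = 0.228), and TOP2A was higher in H820 (0.69, adjusted p = 8.72e-05). Treatment and depth cannot be told apart within H820, which had 1 library of each. Over the list, 7 of 25 were higher in H1975 and 2 in H820. G1/S and replication genes gave 15 of 30 in H1975 and 4 in H820, with medians of -0.94 and -0.29 in the pairs. CDT1, which licenses replication origins, had 63.1 and 66.5 CPM in H1975 against 6.93 and 16.3 CPM in H820 (log2 difference -2.44 ± 0.23, adjusted p = 6.73e-08), and CCNE1, cyclin E1, had 24.5 and 27.7 CPM in H820 against 6.16 and 6.94 CPM in H1975 (log2 difference 1.999 ± 0.18, adjusted p = 3.52e-08). These 2 kept their sides in both pairs. Without the PD-L1s H820 library the MKI67 difference was -3.26 and that of CDT1 -3.16.

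Hypoxia response genes had medians of -1.25 and 0.11 in the untreated and PD-L1s pairs. DDIT4, an inhibitor of mTOR induced by stress, was at 78.5 and 633 CPM in the H820 libraries and between them in H1975 (310.4 and 287 CPM). Its difference was 1.07 without the untreated and -1.94 without the PD-L1s H820 library. RNA of a glucose transporter and of a lactate enzyme differed beyond that spread. SLC2A3, the high-affinity glucose transporter GLUT3, had 302 and 325 CPM in H1975 against 0 and 0.139 CPM in H820 (a ratio of 2868, 95% counting interval 981 to 13907), and LDHA, which makes lactate, had 1837 and 1846 CPM in H1975 against 509 and 822 CPM in H820 (log2 difference -1.48 ± 0.22, adjusted p = 1.49e-05). Of 29 tested, 13 were higher in H1975, LOX among them, and 5 in H820.

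Genes of cholesterol synthesis and uptake were on the H1975 side in both pairs (medians -1.08 and -0.69), with 13 of 22 called there and 3 in H820. SREBF2, the sterol-regulated factor that switches these genes on, had 221 and 219 CPM in H1975 against 85.1 and 126 CPM in H820 (log2 difference -1.07 ± 0.19, adjusted p = 8.62e-05) and was lower in both H820 libraries.

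Targets of NRF2, the sensor of oxidative stress, changed side with the pair (medians 0.31 and -0.56). TXNRD1, thioredoxin reductase, had 1707 and 1230 CPM in H820 against 349 and 359 CPM in H1975 (log2 difference 2.04 ± 0.20, adjusted p = 1.10e-07). SLC7A11, the cystine importer, had 168 and 77.8 CPM in H820 against 36.9 and 31.3 CPM in H1975 (log2 difference 1.79 ± 0.23, adjusted p = 2.54e-06). Both were higher in each H820 library. HMOX1, heme oxygenase, had 77.5 and 71.7 CPM in H1975 against 15.1 and 12 CPM in H820 (log2 difference -2.49 ± 0.17, adjusted p = 8.32e-10), and NQO1 had 164 and 171 CPM in H1975 against 119 and 83.9 CPM in H820 (log2 difference -0.74 ± 0.18, adjusted p = 0.00208). Of 30, 9 were higher in H820 and 13 in H1975. The ferritin chains were split, FTL at 2642 and 3042 CPM in H820 and 749 and 677 CPM in H1975 and FTH1 at 5060 and 5349 CPM in H1975 and 1688 and 1956 CPM in H820, and both have near-identical copies, so their levels are uncertain. Genes of the mitochondrial genome also changed side (medians 0.57 and -0.44), and 1 of 13 was called, MT-CO3, which shares sequence with nuclear copies.

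**Figure D4:**
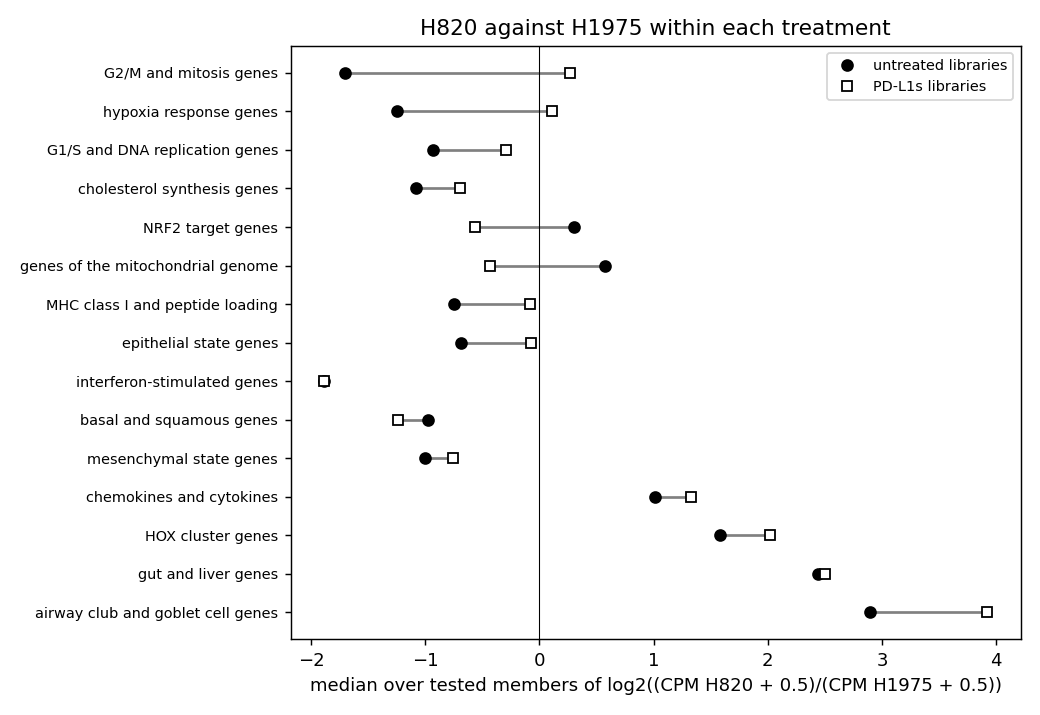
Median log2((CPM H820 + 0.5)/(CPM H1975 + 0.5)) over the tested members of 15 lists, between the untreated libraries (filled circles) and between the PD-L1s libraries (open squares), with 1 library on each side of every ratio. Interferon-stimulated, gut and liver, and basal and squamous genes lie on the same side in both pairs, while G2/M genes go from -1.71 to 0.26.

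Differences were not spread evenly over the genome. Chromosomes 4, 8, 21 and 6 had the highest median log2 differences, at 0.92, 0.70, 0.64 and 0.49 over tested protein-coding genes. Chromosomes 16, 22, 20 and 19 had the lowest, at -0.70, -0.68, -0.62 and -0.58. On chromosome 4, 378 of 583 genes were higher in H820 and 41 in H1975. On chromosome 22, 36 of 381 were higher in H820 and 232 in H1975. GC content moved with this order. The decile of genes lowest in GC had a median of 0.31 and the decile highest in GC -0.41. Within deciles of GC content, a check added after these medians were seen, the medians of chromosomes 4, 8, 21 and 6 were 0.84, 0.59, 0.58 and 0.47, and those of 16, 22, 20 and 19 were -0.57, -0.54, -0.58 and -0.37. Copy number was not measured.

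Chromosome 19 held both the highest and the lowest run of 25 neighbouring genes. The highest run, chr19:39687601-40791302 in GRCh37, from NCCRP1 to AKT2 on the long arm, had a median log2 difference of 3.76, with 24 of 25 genes higher in H820 and 0 in H1975. Its medians were 3.15 and 3.48 in the untreated and PD-L1s pairs. PSMC4, a subunit of the proteasome that every cell uses, had 319 and 331 CPM in H820 against 16.8 and 17.6 CPM in H1975 (log2 difference 4.24 ± 0.17, adjusted p = 1.19e-12). MED29, a subunit of the Mediator complex, had 189 and 179.8 CPM in H820 against 11.5 and 14.2 CPM in H1975 (log2 difference 3.85 ± 0.16, adjusted p = 1.85e-12), and MAP3K10, a kinase upstream of JNK, had 226 and 206 CPM in H820 against 10.8 and 9.31 CPM in H1975 (log2 difference 4.42 ± 0.18, adjusted p = 1.31e-12). AKT2, at the end of the run, is the PI3K pathway gene described above, and all 4 genes were higher in each H820 library than in either H1975 library.

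The lowest run lay at chr19:19896651-23330021, from ZNF506 to ZNF730, with a median of -5.18 and all 25 genes higher in H1975. Its genes encode KRAB zinc finger proteins, repressors that bind retroelements. ZNF626 had 114 and 115 CPM in H1975 against 0.846 and 0.8801 CPM in H820 (log2 difference -6.99 ± 0.24, adjusted p = 4.65e-13). ZNF429 had 103 and 114 CPM in H1975 against 1.01 and 1.204 CPM in H820 (log2 difference -6.55 ± 0.23, adjusted p = 2.49e-13), and ZNF253 had 45.6 and 47.1 CPM in H1975 against 1.01 and 0.973 CPM in H820 (log2 difference -5.54 ± 0.23, adjusted p = 1.69e-12). ZNF626 had 18 and 14.5 CPM in H23 and 0 counts in EBC1. The H820 libraries were thus low for the run but had reads of most of its genes. CpG-rich promoters, with at least 50% GC and an observed over expected CpG ratio of at least 0.6, were 1 of the 19 found for this run (5.26%), against 76.1% of all 11146. Over the protein-coding genes below the gap around the centromere, 389 of 565 were higher in H1975 and 37 in H820. Above it the counts were 241 and 267 of 677.

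**Figure D5:**
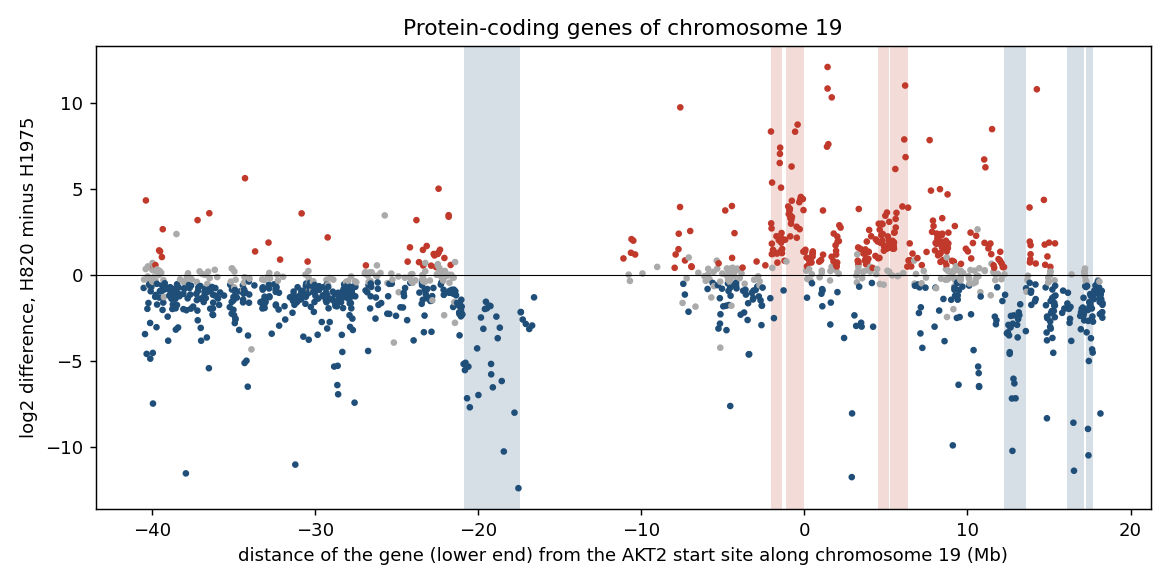
Each point is a tested protein-coding gene of chromosome 19, by its distance in Mb from the AKT2 start and its log2 difference (H820 minus H1975), in red where called higher in H820, blue where called higher in H1975 and grey where not called. Shaded bands are the runs of 25 genes listed among the 8 highest (red) or the 8 lowest (blue) of the genome. The red run with a median of 3.76 ends at 0 Mb, and the blue run with a median of -5.18 is the leftmost band.

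Other runs held gene families named above. A run on chromosome 4 from FGB onward had a median of 2.63, and another from ADGRL3 to CXCL3, which includes several CXC chemokines, 2.49. A run on chromosome 8 from POU5F1B to PTP4A3 had a median of 2.17, with 22 of 25 genes higher in H820. MYC was the 1 gene of that run higher in H1975. Further zinc finger genes on chromosome 19, from ZNF701 to MYADM, gave -3.06. A run of clustered protocadherins on chromosome 5 gave -2.73, but these genes share exons and their separate counts are uncertain. Other genes named above also lay in chromosome 19 runs higher in H820. DLL3 was in the highest run. SPINT2 was in a run with a median of 2.02, NECTIN2 in a run with 1.95 and FOXA3 in a run with 1.90. Whether the differences of these genes follow from their runs was not tested. Over all 14719 runs, 5% had a median under -1.06 and 5% over 1.07.

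Genes next to MET on chromosome 7 were more often on the side of MET than all genes, but not all of them were. 8 of 15 (53.3%, against 27.0% of all genes) were higher in H820 and 4 (26.7%, against 27.4%) in H1975. Their median log2 difference was 0.60, with 0.82 and 0.55 in the untreated and PD-L1s pairs. CAPZA2, beside MET, had 189.9 and 249 CPM in H820 and 180.01 and 169 CPM in H1975 (adjusted p = 0.12) and passed without the untreated H820 library (0.52), while ST7 had 43.3 and 39.4 CPM in H820 against 20.8 and 18.6 CPM in H1975 (log2 difference 1.06 ± 0.16, adjusted p = 1.65e-05). CAV1 and CAV2, on its other side, were higher in H1975, CAV2 not so without the untreated H1975 library (-0.44). FOXP2, further off, had 9.302 and 14.7 CPM in H820 against 0 CPM in H1975 and was at least 199-fold higher in H820.

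Several genes read in 1 line only belong to none of the lists. In H820 these were TSPYL5, a nucleosome assembly family protein, at 85.7 and 89.2 CPM in H820 against 0 CPM in H1975 (at least 1299-fold), and TOX3, a chromatin factor known from breast, at 93.5 and 73.7 CPM in H820 against 0 CPM in H1975 (at least 1145-fold). PARM1, a mucin-like membrane protein, had 64.4 and 80.1 CPM in H820 against 0 CPM in H1975 (at least 1126-fold), and SYCE1, a meiotic chromosome protein, had 34.2 and 57.4 CPM in H820 against 0 CPM in H1975 (at least 769.7-fold). The 4 genes were at 0 counts in both H1975 libraries. ADCY1, PKIA and DAB2 had 32.1 to 51.7 CPM in H820 and 0 counts in H1975 as well, and ADCY1 and PKIA both act in cyclic AMP signalling, as enzyme and as inhibitor of its kinase.

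In H1975, DHRS2, a dehydrogenase induced by histone deacetylase inhibitors, had 467 and 537 CPM in H1975 against 0 and 0.324 CPM in H820 (log2 difference -11.01 ± 0.31, adjusted p = 2.88e-14). The deiminases PADI4 and PADI3, neighbours on chromosome 1 that convert arginine to citrulline, had 55.7 and 51.9 CPM in H1975 against 0 CPM in H820 and 59.9 and 51.7 CPM in H1975 against 0.338 and 0.185 CPM in H820. For PADI4 the fold was at least 494. BNC2, a zinc finger protein of mesenchyme, had 25.4 and 24.4 CPM in H1975 against 0 CPM in H820 (at least 229-fold), and PSG4, a pregnancy-specific glycoprotein, had 20.5 and 25.2 CPM in H1975 against 0 CPM in H820 (at least 209-fold). ZSCAN4, a marker of early embryos, had 23.7 and 20.6 CPM in H1975 against 0 and 0.0463 CPM in H820 (a ratio of 611, 95% counting interval 109 to 24171). All 6 genes had at most 0.338 CPM in either H820 library. DHRS2 had 0 counts in the untreated H820 library, so no difference without the PD-L1s library is given.

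Several defining markers of other cell types were absent or low in both lines, though not all listed markers were. The leucocyte genes PTPRC, CD3D, CD3E and MS4A1 and the endothelial VWF and TEK did not pass the filter. Of 8, 5 and 8 tested fibroblast, endothelial and immune markers, 3, 1 and 2 were higher in H820 and 2, 2 and 3 in H1975. COL3A1, a defining fibroblast collagen, had 0 counts in all 4 libraries. The fibroblast list as a whole summed to 59.5 and 56.3 CPM in H820 and 35.2 and 34.5 CPM in H1975. CSF1R, described above and higher in H1975, is on the immune list. CD68, a lysosomal gene that tumour cells also express, made up most of the summed immune marker level. Of 16 neuroendocrine genes, 6 were higher in H820, such as DLL3, and 5 in H1975, such as VGF at 19.5 and 20.5 CPM in H1975 against 1.52 and 3.52 CPM in H820 (log2 difference -2.80 ± 0.23, adjusted p = 1.16e-08), while NEUROD1, a factor that defines part of that state, did not pass the filter. The VGF difference was -3.71 without the PD-L1s H820 library.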

How the data were processed

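RNA was sequenced in 8 libraries, and those of H820 and H1975 are compared here. The submitters' processing notes name STAR 2.7.3a, Subread 2.0.0 with featureCounts, and the build GRCh37. Per the file headers, the deposited values are whole-number counts of read pairs per gene of GENCODE 28 lifted to GRCh37, by strand. A pair that overlapped several genes was counted for each, so overlapping genes share reads, and near-identical copies (at least 95% identity over 50% of the transcript, BLAST+ 2.17.0) are uncertain. Libraries were made from total RNA after removal of ribosomal RNA, per the labels.

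From these counts, chromosomes X and Y (3028 of 60106 genes) were left out. Genes were kept by filterByExpr of edgeR 4.0.16 (minimum count 10, line as group) and scaled by TMM. The quasi-likelihood test was fitted on all 8 libraries with cell line and treatment as terms, on the contrast H820 minus H1975, two-sided, with Benjamini-Hochberg adjustment over 23419 genes and calls under 0.05 (R 4.3.3). In the fit 3 residual degrees of freedom remained. The script was tested on simulated counts. Gene lists are described by counts of called members and their median.

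Members and lists were chosen with earlier results of these data known. Genes named were the 15 largest differences in each direction among coding genes with at least 20 CPM in the higher line, the 8 largest bounds, up to 4 members of each list by p, a fixed set of drivers and markers, and up to 4 genes of the extreme runs. Other genes were named after their values were seen. Alternatives were DESeq2 1.42.0, limma-voom 3.58.1, library-size scaling, other filters, other sets of libraries, thinned counts and leaving out each library. Promoter sequences were matched by symbol for 11146 of 15260 coding genes. Some genes are not reported here.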

Additional observations from a re-analysis of the deposited data

Results flagged for a closer look

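In 3 of the 43 lists examined, medians lay on opposite sides of 0 in the untreated and the PD-L1s pair of libraries, by over 0.25 in each. G2/M and mitosis genes had a median log2 difference (H820 minus H1975) of -1.71 between the untreated libraries and 0.26 between the PD-L1s libraries. For NRF2 target genes the values were 0.31 and -0.56. Genes of the mitochondrial genome gave 0.57 and -0.44.

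Among the genes named, 4 did the same. TOP2A, a topoisomerase of dividing cells, gave -1.85 in the untreated pair and 0.66 in the PD-L1s pair. DDIT4, the inhibitor of mTOR, gave -1.98 and 1.14. The interferon target GBP2 gave -0.65 and 0.46, and the ERK phosphatase DUSP6 gave 0.33 and -0.74. Each pair is 1 library per line, so these differences between the pairs were not tested.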

How the results depend on the processing

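With DESeq2 5630 genes were higher in H820 and 5444 in H1975, and 10983 of the 12742 calls were kept. Tested against a 2-fold difference instead of 0, the counts were 2897 and 2609, since fewer genes can pass. With each library left out in turn they were 4654 to 6420 and 5015 to 6337. Calls that took the other sign numbered 2 without the untreated and 40 without the PD-L1s H820 library, and 5 with counts thinned to the shallowest library. Interferon-stimulated genes higher in H1975 numbered 31 to 40 over all settings. The run of zinc finger genes on chromosome 19 stayed between -5.30 and -4.86 with a library left out.

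Of 197 named genes called, 7 lost the call and 0 took the other sign without 1 library, but 59 moved by over 1.5-fold. Sign changes were held by genes that were not called. GBP2 was 0.021 with library-size scaling, 0.0068 with limma-voom, 0.032 at a minimum count of 50, 0.019 over coding genes and 0.082 without a treatment term. DDIT4 was 0.26 without a treatment term. AXIN2 was -0.21 and HOXC8 -0.041 in thinned counts. STK11 was -0.053 without a filter and -0.020 in the 6 adenocarcinoma libraries. With a library left out, the ranges were -0.71 to 0.48 for GBP2, -1.94 to 1.07 for DDIT4, -0.066 to 0.34 for HOXC8, -0.17 to 0.15 for STK11, -0.42 to 0.035 for AXL, -0.72 to 0.28 for DUSP6, -0.35 to 0.0047 for ERBB2, -1.31 to 0.052 for FN1, -0.46 to 0.050 for HLA-B and -1.91 to 0.69 for TOP2A. The cause was not tested. The shallow untreated H820 library limits the precision for low genes.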

Other observations

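Noncoding genes differed between the lines too. Of 8159 noncoding genes tested, 1614 were higher in H820 and 1625 in H1975. HOTAIRM1, an antisense RNA of the HOXA cluster, had 26.9 and 33.7 CPM in H820 against 0 CPM in H1975 and was at least 473-fold higher in H820, on the side of most HOX genes. HOXA-AS2, from the same cluster, had 24.9 and 33.9 CPM in H820 against 0.0437 and 0 CPM in H1975. On the H1975 side RP1-149A16.12 had 22.1 and 32.4 CPM in H1975 against 0 CPM in H820 and was at least 248-fold higher.

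Imprinted genes, read from 1 parental allele in normal tissue, were examined in a list of 25 written after their values had been seen. Of 22 tested, 6 were higher in H820 and 12 in H1975. H19, a noncoding RNA of chromosome 11, had 50.2 and 51.1 CPM in H1975 against 0.169 and 0.232 CPM in H820 (log2 difference -7.80 ± 0.30, adjusted p = 7.22e-13). Its neighbour IGF2, a growth factor whose reads overlap other transcripts, had 66.97 and 73.5 CPM in H820 against 33.6 and 36.1 CPM in H1975 (log2 difference 1.01 ± 0.15, adjusted p = 1.25e-05), so the pair were on opposite sides. KCNQ1OT1, the antisense RNA that silences the adjoining domain, had 824 and 901 CPM in H820 against 237 and 227 CPM in H1975 (log2 difference 1.90 ± 0.20, adjusted p = 2.24e-07), and CDKN1C, a growth inhibitor within that domain, had 8.79 and 7.13 CPM in H1975 against 3.04 and 3.24 CPM in H820 (log2 difference -1.33 ± 0.24, adjusted p = 0.000113). PEG3, a zinc finger gene on chromosome 19, had 19.2 and 18.8 CPM in H1975 against 0 CPM in H820 (at least 174-fold), and PEG10, a gene derived from a retrotransposon, had 569.97 and 559 CPM in H1975 against 43.5 and 51.1 CPM in H820 (log2 difference -3.57 ± 0.19, adjusted p = 2.78e-11). MKRN3 and NDN, neighbours on chromosome 15, were in opposite lines, MKRN3 at 5.42 and 5.57 CPM in H1975 and 0 CPM in H820 and NDN at 1.18 and 1.85 CPM in H820 and 0 CPM in H1975. No allele was measured.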
